A study of Mus musculus with 24 samples.

Results

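The pregnancy-specific glycoproteins described here are the products of 10 mouse genes, *Psg17*, *Psg18*, *Psg19*, *Psg21*, *Psg22*, *Psg23*, *Psg25*, *Psg26*, *Psg27* and *Psg28*. They were chosen by gene name, and all 10 were found among the 55401 genes of the gene read count table. Pregnancy-specific glycoproteins are secreted members of the immunoglobulin superfamily and belong with the carcinoembryonic antigen-related (Ceacam) proteins in 1 larger family. In the mouse they are made mainly by trophoblast, the fetal cell layer of the placenta, with the spongiotrophoblast of the junctional zone and the giant cells as the best known sources. Roles in the regulation of maternal immune cells, in the activation of the cytokine TGF-beta and in the growth of blood vessels have been described for several of them, and the work of single members is known in less detail than that of the family.

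The libraries came from the maternal-fetal interface (MFI) of mice on the C57BL/6 background, a tissue that holds placenta and decidua together. WT mice were compared with homozygous C1qtnf6-KO mice, in which CRISPR-Cas9 had removed 3 exons of *C1qtnf6*, the gene of the secreted protein CTRP6, at 4 stages named by their gestation day (gd10.5, then gd14.5, then gd16.5 and last gd19.5). Each of the 8 groups had 3 libraries, 24 in all. The deletion was carried by the whole animal and not by 1 cell type, and neither the dams nor litters nor the number of animals in a library are given in the sources used here, so that p-values measure the spread between these libraries, which may in part be technical. The study asked how the loss of CTRP6 alters the RNA of the MFI at each stage.

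Between 20975717 and 37383108 reads per library were assigned to genes. Levels are given as CPM, the counts of a gene as a share of the TMM-scaled library, which compare 1 gene between libraries, or as CPM per kilobase of exon (RPKM), which also compare genes. *C1qtnf6* was at 64.7 to 168 CPM in the WT libraries and at 0.0341 to 2.05 CPM in the KO libraries, and every KO library was below every WT library of its stage. Marker genes of trophoblast giant cells summed to 4836 to 29955 CPM and those of decidual stroma to 1797 to 13366 CPM, so both sides of the MFI were represented in all 24 libraries. Markers of yolk sac endoderm, a neighbouring membrane, summed to 957 to 16070 CPM in 7 libraries (WT gd10.5 replicate 1, all 3 KO gd10.5, WT gd16.5 replicate 1, KO gd16.5 replicates 1 and 2) and to 8.69 to 184 CPM in the other 17. The library KO gd10.5 replicate 2 stood apart from its group in the Psg genes and in many markers, and results that rest on it are given with and without it.

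All 10 genes lie on chromosome 7 of GRCm38 between positions 18345422 and 18821607. In genome order they are *Psg18*, *Psg28*, *Psg26*, *Psg25*, *Psg27*, *Psg23*, *Psg21*, *Psg22*, *Psg19* and *Psg17*, and *Psg22* (chr7:18718090-18727248) is the only one on the plus strand. No other annotated gene overlaps any of them. The remaining Psg genes of the table are *Psg20*, which lies between *Psg21* and *Psg22*, and *Psg16*, *Psg29* and the pseudogene *Psg-ps1*, which lie apart between positions 17074040 and 17682060.

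The coding sequences of the 10 members are close copies, and how close decides how well short reads can tell them apart. Over the 45 pairs, identity of the longest annotated coding sequence ran from 79.3% (*Psg22* with *Psg27*) to 97.5% (*Psg21* with *Psg23*). *Psg22* was the farthest relative of 8 of the other 9 members, and its own nearest member was *Psg19* at 86.9%. The last 90 coding bases before the stop codon, taken from the GENCODE transcripts of GRCm38 in the direction of the gene, are more alike and do not follow the order of the whole coding sequences. They are printed for *Psg22*, which follows its own course below, for *Psg26*, which rose most from gd14.5 to gd16.5, and for *Psg21* and *Psg23*, the closest pair, with capitals at each base that differs from *Psg22*.
*Psg22* (chr7:18726900-18726989, plus strand): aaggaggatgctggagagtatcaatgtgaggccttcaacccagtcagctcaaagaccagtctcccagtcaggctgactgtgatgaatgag
*Psg26* (chr7:18475057-18475146, minus strand): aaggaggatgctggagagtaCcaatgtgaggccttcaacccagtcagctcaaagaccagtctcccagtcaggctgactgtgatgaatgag
*Psg21* (chr7:18647204-18647293, minus strand): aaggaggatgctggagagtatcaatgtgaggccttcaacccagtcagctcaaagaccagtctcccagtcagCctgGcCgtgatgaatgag
*Psg23* (chr7:18606915-18607004, minus strand): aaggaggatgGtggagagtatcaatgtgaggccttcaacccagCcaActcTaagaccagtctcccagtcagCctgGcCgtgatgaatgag
In this stretch *Psg26* differed from *Psg22* at 1 base, though their whole coding sequences were 81.2% identical, *Psg21* at 3 and *Psg23* at 7. Windows of 150 bases, the read length, were taken from 1 transcript of each gene, that with the longest coding sequence. The rest of the exon sequence was not searched (*Psg18* gave 1510 windows, against 3232 bases of exon). Of these windows, 100% occurred in no other gene for *Psg17*, *Psg18*, *Psg19*, *Psg26*, *Psg27* and *Psg28*. The share was 88.5% for *Psg21* and 89.1% for *Psg23*, which shared windows with each other. It was 98.8% for *Psg22* and 99.3% for *Psg25*, which also shared windows with each other. A single read from a shared window cannot be assigned to 1 gene by itself, but the reads were paired and its mate may lie in a window that is not shared. By this measure, which does not use the pairs, the levels of *Psg21* and *Psg23* are less certain than those of the other members.

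Upstream sequences from RefSeq (GRCm38.p6) were matched for 8 of the 10 members, and *Psg19* and *Psg22* were not matched. The 250 bases before the start are printed in gene direction for *Psg23*, the member with the highest level per kilobase at gd19.5, for *Psg27*, the highest of these 8 at gd10.5, and for *Psg26*, the lowest at gd10.5. Capitals mark CTTATC, which is GATAAG, a motif bound by GATA factors, on the other strand.
*Psg23* (chr7:18616502-18616751, minus strand): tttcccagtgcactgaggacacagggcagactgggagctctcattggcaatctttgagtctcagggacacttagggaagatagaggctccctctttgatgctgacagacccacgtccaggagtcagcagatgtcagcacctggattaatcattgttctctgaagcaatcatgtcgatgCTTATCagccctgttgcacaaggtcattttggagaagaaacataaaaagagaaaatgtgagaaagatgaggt
*Psg27* (chr7:18567306-18567555, minus strand): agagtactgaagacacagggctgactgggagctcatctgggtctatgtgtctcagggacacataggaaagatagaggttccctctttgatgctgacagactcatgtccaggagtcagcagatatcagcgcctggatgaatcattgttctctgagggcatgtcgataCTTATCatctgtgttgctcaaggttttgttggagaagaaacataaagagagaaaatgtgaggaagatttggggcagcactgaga
*Psg26* (chr7:18484150-18484399, minus strand): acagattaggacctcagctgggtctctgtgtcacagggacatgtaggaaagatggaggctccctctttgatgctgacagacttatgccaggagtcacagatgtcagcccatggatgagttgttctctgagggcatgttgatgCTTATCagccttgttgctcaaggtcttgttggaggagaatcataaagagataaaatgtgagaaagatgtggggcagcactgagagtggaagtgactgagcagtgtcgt
Windows from 250 bases before to 50 after the start were searched on both strands for 4 motifs, none of which contains another. GATAAG was found once in each of the 8 member windows and in 7.44% of all 32851 windows, and in the members it began 69 to 108 bases before the annotated start. A stretch of 17 bases common to all 8 windows shifted with it. The stretch began 31 bases before the start in *Psg26* (motif at 108) and at -8, past the start, in *Psg21* (motif at 69). The spread of positions thus mostly follows where the starts are annotated. CACCC was found in the windows of *Psg17* and *Psg25*, against 57.5% of all windows. TATAAA and GGGCGG were found in 0 of the 8, against 13.6% and 35.7% of all windows. The member windows are copies of each other, with 65.1% (*Psg21* with *Psg26*) to 96.4% (*Psg18* with *Psg28*) identity over the 28 pairs of upstream sequences, so they are not independent. The sequences were aligned end to end from the annotated starts, so the offset between starts lowers some identities, among them that of *Psg21* with *Psg26*. GATAAG was also found 72 bases before the start of *Psg29* and not in the window of *Psg20*. A match is a run of letters and does not show that a factor binds there.

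From gd10.5 to gd14.5 the family went from a trace of the MFI's RNA to several percent of it. The 10 genes together took 0.0683% to 0.0786% of all assigned reads in the WT libraries of gd10.5. The range was 2.73% to 3.11% on gd14.5, 3.88% to 4.61% on gd16.5 and 3.67% to 4.09% on gd19.5. The KO libraries took 0.0598%, 0.528% and 0.0454% at gd10.5 (replicates 1 to 3), then 2.60% to 3.33%, 5.12% to 5.38% and 3.09% to 4.37%. Their summed CPM was 655 ± 53.5, 28855 ± 2353, 46174 ± 3863 and 39550 ± 2693 in WT (SD, n = 3 at each stage). In bulk tissue, more cells of a type and more RNA per cell cannot be told apart.

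**Figure D1:**
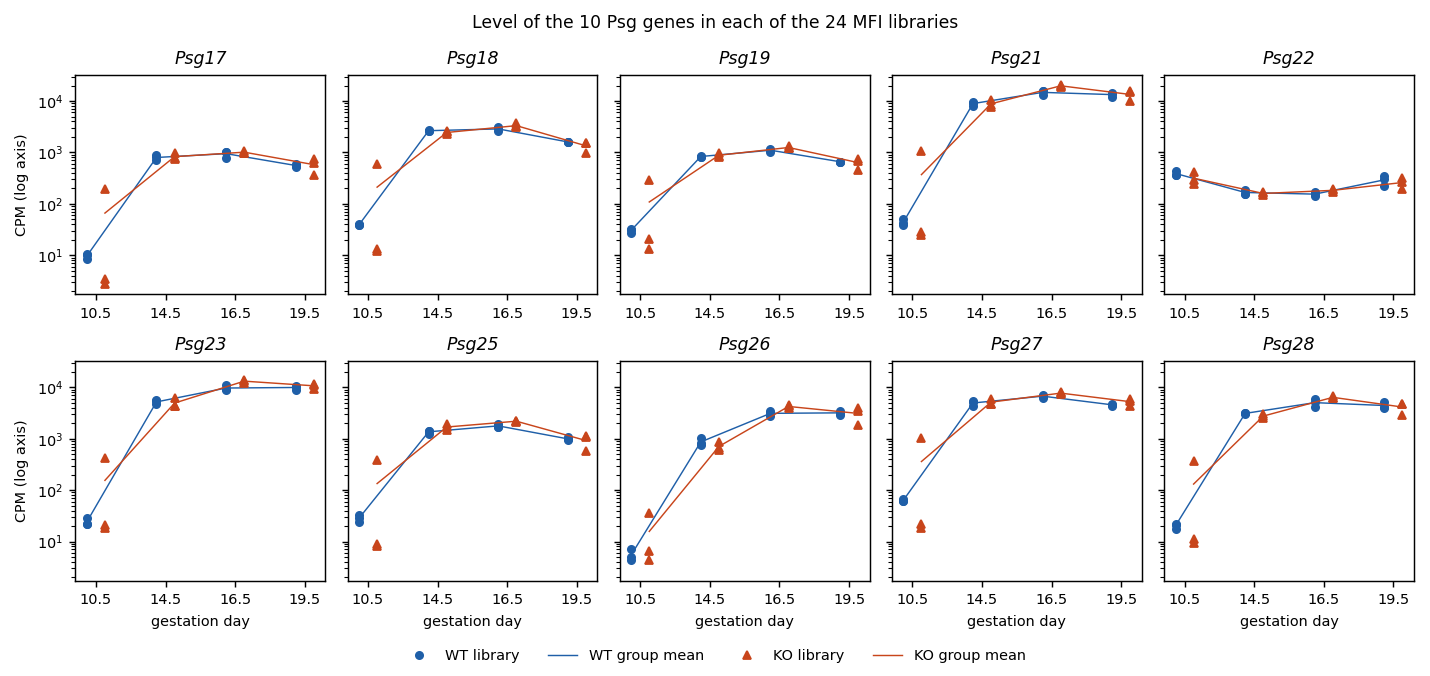
Levels of the 10 Psg genes in each of the 24 libraries, in CPM on a log axis (vertical) at the 4 gestation days (horizontal), with a circle for each WT library and a triangle for each KO library. Of the 10 genes, 9 sit far higher from gd14.5 on than at gd10.5, *Psg22* is lower at gd14.5 and gd16.5, and 1 KO library of gd10.5 lies above the other 5 of its stage in 9 of the 10 genes.

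In WT, 9 of the 10 members were called higher at gd14.5 than at gd10.5, by edgeR's quasi-likelihood test over 19299 genes with a Benjamini-Hochberg adjusted p under 0.05 and a log2 fold change over 1. The other, *Psg22*, was called lower, so that all 10 were called, against 22.5% of all genes tested (2036 genes higher and 2301 lower). The log2 fold changes of the 9 ran from 4.77 (*Psg19*) to 7.75 (*Psg23*), and the median over all 10 members was 6.33, against -0.02 over all genes. In each of the 9, the 3 WT libraries of gd14.5 lay wholly above the 3 of gd10.5, as they did in 30.3% of all genes. The KO libraries also gave 9 members called higher, against 9.09% of all genes, with log2 fold changes from 3.02 (*Psg19*) to 5.49 (*Psg26*). Without KO gd10.5 replicate 2, the KO changes of the same 9 members ran from 5.71 (*Psg19*) to 8.39 (*Psg21*), and 12.4% of all genes were called higher.

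*Psg23* gave the largest change in WT. It was at 28.4, 22.2 and 21.7 CPM in the WT libraries of gd10.5 and at 4650, 5646 and 5314 CPM in those of gd14.5 (log2 fold change 7.75 ± 0.91, SE, adjusted p = 1.67e-06). Its close copy *Psg21* went from 50.7, 43.3 and 38.0 CPM to 7903, 9356 and 9493 CPM (7.66 ± 1.06, adjusted p = 8.31e-06). *Psg28* went from 21.4, 21.4 and 17.9 CPM to 3033, 3138 and 3154 CPM (7.26 ± 1.01, adjusted p = 9.26e-06). In these 3 genes the replicates of a stage differed little beside the step between stages.

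*Psg26* was the scarcest member at gd10.5, with 7.09, 4.91 and 4.40 CPM in WT, and reached 758, 1017 and 824 CPM at gd14.5 (7.31 ± 0.62, adjusted p = 6.83e-08). *Psg27*, the highest of the 9 at gd10.5, went from 67.3, 61.6 and 61.6 CPM to 4353, 5330 and 5177 CPM (6.29 ± 1.03, adjusted p = 4.94e-05). The smallest change of the 9 was that of *Psg19*, from 27.6, 31.4 and 32.7 CPM to 800, 871 and 827 CPM (4.77 ± 0.74, adjusted p = 2.82e-05). The other 3 lay between, with *Psg17* at 6.37 ± 1.06, *Psg18* at 6.08 ± 1.01 and *Psg25* at 5.58 ± 0.98 on the log2 scale.

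*Psg22* was the exception. Its WT libraries held 444, 362 and 364 CPM on gd10.5, and 158, 152 and 189 CPM on gd14.5. They held 141, 170 and 152 CPM on gd16.5, then 300, 227 and 352 CPM on gd19.5. It was called lower at gd14.5 than at gd10.5 (log2 fold change -1.23 ± 0.19, edgeR adjusted p = 2.19e-05). In the KO libraries it was at 410, 243 and 294 CPM at gd10.5 and at 164, 148 and 166 CPM at gd14.5, so the groups did not overlap (-0.99 ± 0.19, adjusted p = 0.000216, just inside the fold limit). Without KO gd10.5 replicate 2 the KO change was -1.14 ± 0.18 and was called (adjusted p = 2.74e-05, with 13.4% of all genes called lower). From gd16.5 to gd19.5 in WT it went up by 0.92 ± 0.19 on the log2 scale with adjusted p = 0.00871, which is inside the fold limit, and every WT library of gd19.5 was above those of gd16.5. The same step in KO was 0.51 ± 0.18 with adjusted p = 0.107, and those groups overlapped. Between gd19.5 and gd10.5 it differed by -0.41 ± 0.18 in WT (adjusted p = 0.0574) and by -0.28 ± 0.18 in KO (adjusted p = 0.194).

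These opposite courses turned over the make-up of the family. Per kilobase of exon, *Psg22* made up 66.4% ± 1.96 (SD, n = 3) of the summed RPKM of the 10 genes in WT at gd10.5, and *Psg27* came next with 10.46% ± 0.398. At gd14.5 *Psg22* was at 0.773% ± 0.0969, and *Psg21* (22.5% ± 0.657), *Psg27* (22.1% ± 0.573) and *Psg23* (20.7% ± 0.418) led. The ranges of *Psg21* and *Psg27* overlapped there, so their order is not set by 3 libraries. At gd19.5 *Psg23* (28.4% ± 1.05) was above *Psg21* (24.3% ± 0.569) in every WT library, followed by *Psg27* (14.7% ± 1.50) and *Psg28* (14.1% ± 1.32), which overlapped. In raw counts *Psg21* was ahead of *Psg23* there (33.7% against 25.1%, WT means). The order per kilobase thus rests on the exon lengths used, 3425 bases for *Psg21* and 2179 for *Psg23*. *Psg22* stayed under 1% in the mean of every group from gd14.5 on, also in KO.

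**Figure D2:**
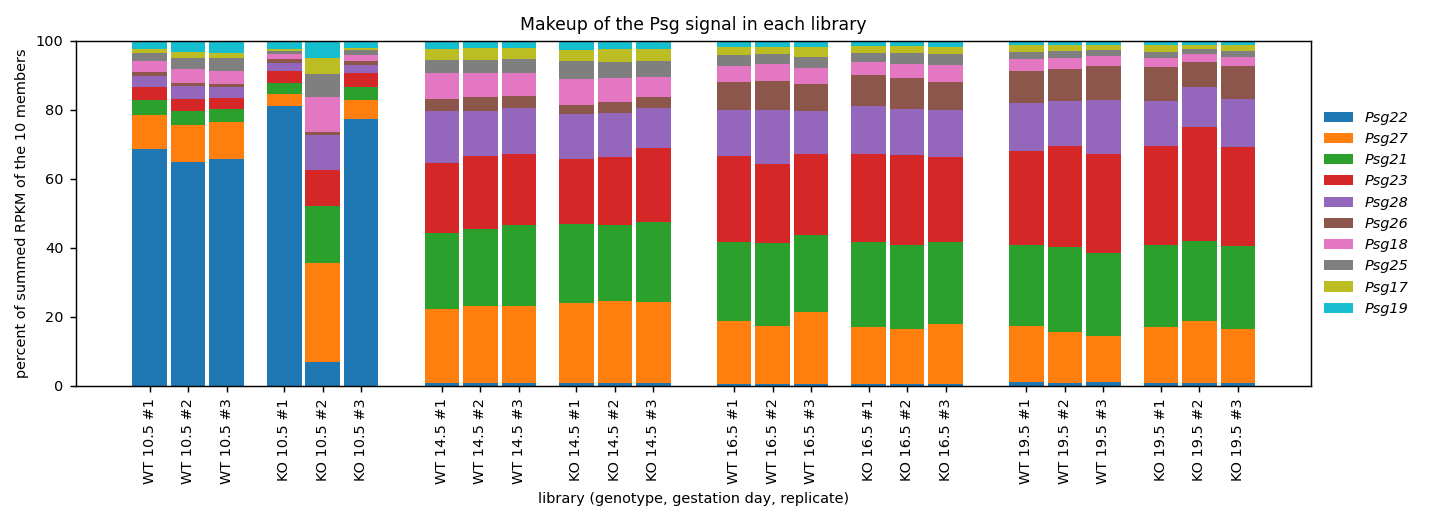
Share of each Psg gene in the summed RPKM of the 10 genes, in percent (vertical), with 1 stacked bar for each of the 24 libraries (horizontal), grouped by gestation day and genotype. *Psg22* fills 64.9% to 68.6% of the WT bars at gd10.5 and no more than 1.09% of any later bar. In the KO bars at gd10.5 it fills 81.2%, 6.92% and 77.3%.

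In the KO libraries of gd10.5, the *Psg22* share was 81.2%, 6.92% and 77.3% (replicates 1 to 3), so replicate 2 was far below the other two. The ratio of *Psg22* to *Psg21* in RPKM, which does not depend on how the libraries are scaled, put the turnover in 1 number. It was 16.3 ± 1.12 in WT at gd10.5 and 0.0343 ± 0.00389, 0.0193 ± 0.00258 and 0.0403 ± 0.00831 at the 3 later stages (SD, n = 3 each).

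From gd14.5 to gd16.5, *Psg26* alone was called, in both genotypes, and the WT call ended without WT gd14.5 replicate 1 (log2 fold change 1.76, edgeR adjusted p = 0.0544). It went from 758, 1017 and 824 CPM to 3423, 3208 and 2722 CPM in WT (log2 fold change 1.85 ± 0.48, edgeR adjusted p = 0.0108), when 2.78% of all genes were called higher. In KO it went from 595, 660 and 867 CPM to 4541, 4288 and 3904 CPM (2.59 ± 0.49, adjusted p = 0.000886, with 5.36% of all genes called higher). The 3 libraries of gd16.5 lay wholly above those of gd14.5 for 7 of the 10 members in WT and for all 10 in KO, against 20.4% and 20.9% of all genes. The 7 were *Psg19*, *Psg21*, *Psg23*, *Psg25*, *Psg26*, *Psg27* and *Psg28*, and those other than *Psg26* had fitted log2 fold changes of 0.38 to 0.90 that did not pass the test.

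The test of these later steps depended on 1 library that takes no part in them, since all 24 libraries share 1 estimate of the spread of each gene. Without KO gd10.5 replicate 2, the standard error of the *Psg21* step in WT went from 0.79 to 0.16, and *Psg21* (0.73), *Psg23* (0.90), *Psg26* (1.85), *Psg27* (0.44) and *Psg28* (0.70) had adjusted p under 0.05, against 12.3% of all genes in that direction. Of these, *Psg26* alone was past the fold limit. In KO 4 members were then called higher, *Psg21* (1.16 ± 0.16), *Psg23* (1.42 ± 0.15), *Psg26* (2.58 ± 0.23) and *Psg28* (1.21 ± 0.17), against 5.78% of all genes.

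From gd16.5 to gd19.5 no member was called in either genotype by edgeR, where 0.917% of all genes were called higher and 0.57% lower in WT, and 0.736% and 1.45% in KO. At an unadjusted p under 0.05, 1 member passed in each genotype, *Psg22*, against 20.6% of all genes in WT and 21.8% in KO. DESeq2 also called 0, but gave an adjusted p for only 3 of the 10, *Psg22*, *Psg26* and *Psg28*. *Psg17*, *Psg18*, *Psg19*, *Psg25* and *Psg27* lay wholly lower at gd19.5 in WT, 5 of the 10 members against 16.4% of all genes. In KO 8 of the 10 lay wholly lower, all but *Psg22* and *Psg26*, against 13.6% of all genes. *Psg18*, for example, was at 2938, 3101 and 2565 CPM at gd16.5 and at 1630, 1575 and 1595 CPM at gd19.5 in WT (log2 fold change -0.84 ± 0.81, adjusted p = 0.604). *Psg23* was at 10886, 9407 and 8774 CPM at gd16.5 and at 8905, 10161 and 10732 CPM at gd19.5, where the groups overlapped (0.04 ± 0.68, adjusted p = 0.984).

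Without KO gd10.5 replicate 2, the same WT step gave adjusted p under 0.05 for the 5 members that lay wholly lower, at -0.56 (*Psg27*) to -0.84 (*Psg18* and *Psg25*) on the log2 scale, against 5.24% of all genes in that direction. None of the 5 was past the fold limit. In KO *Psg18* (-1.31 ± 0.14) and *Psg25* (-1.25 ± 0.18) were then called lower, against 2.14% of all genes. Between gd10.5 and gd19.5, the 9 members other than *Psg22* were called higher in both genotypes with all libraries, against 14.9% (WT) and 14.1% (KO) of all genes, from 4.43 (*Psg19*) to 9.18 (*Psg26*) on the log2 scale in WT.

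The members thus differed in how far they went after gd14.5, which ratios within a library show without the scaling. These pairs were chosen after their values were seen. The RPKM ratio of *Psg26* to *Psg25* was 0.300 ± 0.131, 0.946 ± 0.112, 2.61 ± 0.236 and 4.80 ± 0.644 at the 4 stages in WT (SD, n = 3 each), and each stage lay wholly above the one before. In KO it was 1.20, 0.140 and 0.731 at gd10.5 (replicates 1 to 3) and 0.622 ± 0.0769, 2.89 ± 0.312 and 5.01 ± 0.170 from gd14.5 on, so KO replicates 1 and 3 of gd10.5 lay above all KO libraries of gd14.5. The ratio of *Psg23* to *Psg25* was 1.25 ± 0.411, 5.44 ± 0.227, 7.77 ± 0.376 and 14.3 ± 1.57 in WT and 2.73 ± 1.07, 4.15 ± 0.450, 8.60 ± 0.785 and 17.6 ± 4.65 in KO. By contrast, that of *Psg21* to *Psg23*, the closest copies, stayed between 0.855 and 1.16 in the 4 WT means, though it was lower at each later stage. The height of these ratios rests on the exon lengths used, and their course over the stages does not.

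**Figure D3:**
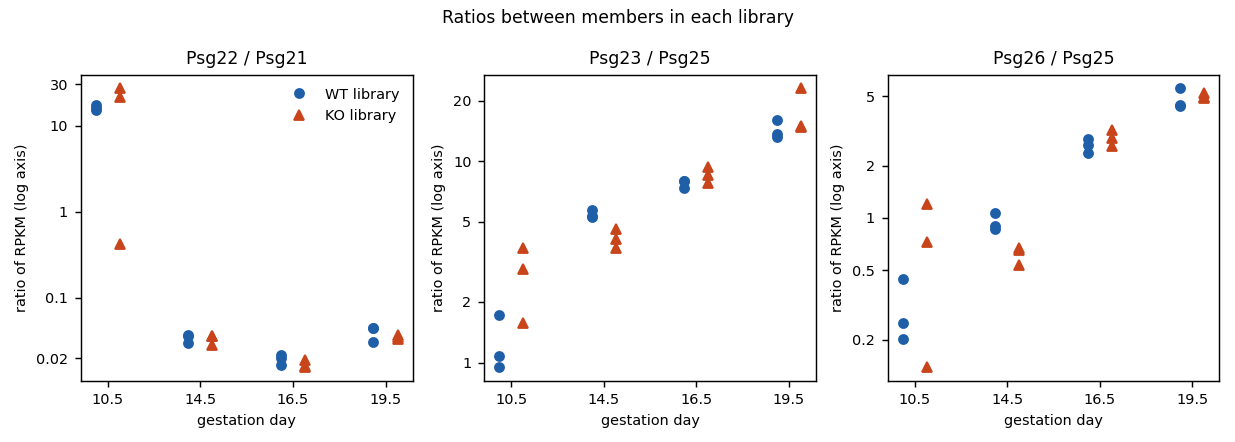
RPKM ratios of *Psg22* to *Psg21*, *Psg23* to *Psg25* and *Psg26* to *Psg25* in each library, on log axes (vertical), at the 4 gestation days (horizontal), with circles for WT and triangles for KO libraries. The first ratio drops from a WT mean of 16.3 to under 0.05, and the other two climb from stage to stage in WT, from 1.25 to 14.3 and from 0.300 to 4.80. For *Psg26* to *Psg25*, 2 of the KO libraries of gd10.5 lie above those of gd14.5.

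The other Psg genes were tested beside the members. *Psg16*, which encodes a Psg protein found also in brain, and *Psg-ps1*, a pseudogene, were called higher at gd14.5 than at gd10.5 in WT, and *Psg20* was called lower, so that 2 of these 4 genes were higher and 1 lower. *Psg16* went from a mean of 23.7 to 4403 CPM (log2 fold change 7.53 ± 0.66), and *Psg-ps1* from 10.2 to 2555 CPM (7.96 ± 1.13). *Psg20* went from 3.14 to 0.933 CPM (-1.74 ± 0.27, adjusted p = 3.26e-05). *Psg29* was at 843 to 2252 CPM in all 24 libraries, and its WT step was -0.27 ± 0.15 (adjusted p = 0.135). From gd14.5 to gd16.5 *Psg16* was called higher in WT (1.80 ± 0.51, adjusted p = 0.0172) and in KO (2.53 ± 0.52, adjusted p = 0.00167), as *Psg26* was.

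Of 13 Ceacam genes tested, the nearest relatives of the Psg genes, 7 were called higher and 3 lower at gd14.5 than at gd10.5 in WT. The 4 with the largest changes were *Ceacam12* (8.15 ± 1.09 on the log2 scale), *Ceacam14* (7.20 ± 1.16), *Ceacam11* (5.90 ± 0.85) and *Ceacam5* (5.36 ± 0.94). From gd16.5 to gd19.5 *Ceacam15* was called higher (1.27 ± 0.36, adjusted p = 0.0475). Of 15 genes for described Psg binding partners and the TGF-beta axis (the tetraspanin *Cd9*, syndecans, integrins and others), 2 were called higher at gd14.5 and 0 lower. The 2 genes were *Gpc1*, which encodes a heparan sulphate proteoglycan of the cell surface, at 1.71 ± 0.28, and *Tgfb3*, a TGF-beta ligand, at 1.50 ± 0.24. Over this step 4 of 6 markers of spongiotrophoblast and glycogen cells were called higher, among them *Prl8a8* (8.97 ± 1.12), *Tpbpb* (6.06 ± 0.93) and *Tpbpa* (3.76 ± 0.68). The other 2 were fitted lower. Of the 5 labyrinth trophoblast markers tested, 4 were also called higher and 0 lower. The 6 giant cell markers were split, with 2 called higher and 3 lower (*Prl3d1*, *Prl2c2* and *Prl4a1*). All 6 NK cell markers and 5 of 6 decidual stroma markers were called lower, against 11.9% of all genes. The part of cell make-up in the rise of the Psg genes was not tested.

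Over the 24 libraries, the log2 CPM of the 9 rising members ran together, with Pearson's r of 0.927 to 0.999 between any 2 of them, and those of *Psg22* ran against them (-0.768 to -0.615). These values mostly follow the step between stages and share the libraries and their depth, and the same holds for the gene most like each member. *Psg28* was most like *Tpbpb* (r = 0.999), *Psg21* most like *Ceacam12* (0.998), *Psg17* and *Psg27* most like *Ceacam14* (0.996 and 0.998) and *Psg23* most like *Ceacam11* (0.995). *Psg18* and *Psg25* were most like *Ctsm*, a placental cathepsin (0.998 and 0.997), *Psg26* most like *Fbln7*, which encodes a fibulin (0.993), and *Psg19* most like *Sycp1-ps1* (0.997), a pseudogene that ends 467 bases from it. *Sycp1-ps1* is on the plus strand, past the end of *Psg19*, which is on the minus strand. Since counting ignored strand, reads that run past the end of *Psg19* could be counted to *Sycp1-ps1*, which was not tested. *Psg22* had no partner as near. Its closest was *Cyp17a1*, an enzyme of steroid synthesis (0.877), at 148 ± 14.3 CPM in WT at gd10.5, 33.4 ± 2.04, 53.2 ± 8.71 and 117 ± 10.3 CPM in the later stages.

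**Figure D4:**
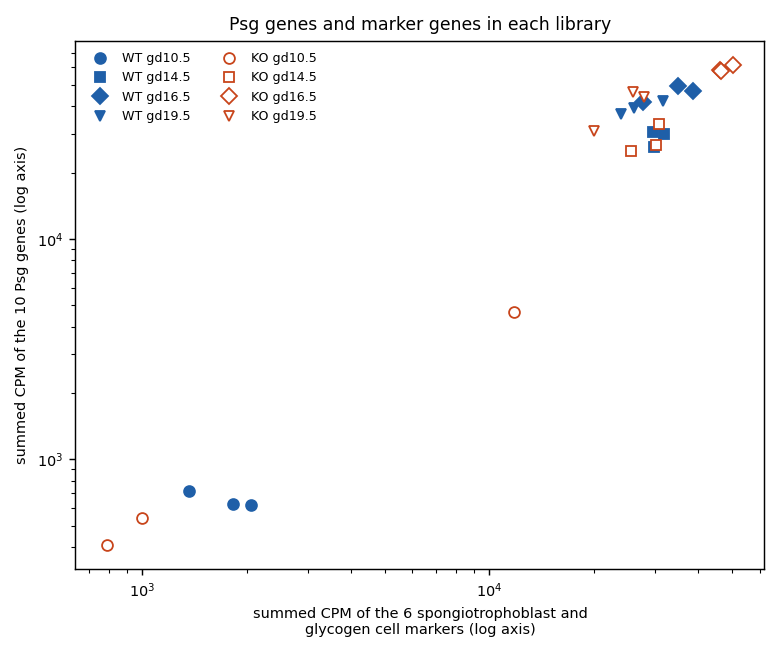
Summed CPM of the 10 Psg genes (vertical, log axis) against the summed CPM of 6 spongiotrophoblast and glycogen cell markers (horizontal, log axis) in each of the 24 libraries, with colour for genotype and shape for gestation day. KO gd10.5 replicate 2, at 4652 CPM of Psg genes and 11791 CPM of markers, lies between the other libraries of gd10.5 and those of the later stages.

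The comparison of KO with WT asked whether the loss of *C1qtnf6* moved the Psg genes at a given stage. With all libraries, edgeR called 0 of the 10 members at each of the 4 stages, and DESeq2 also called 0, though at gd10.5 it gave no adjusted p for 8 of them. Few genes were called at all by edgeR. The share of those tested was 0.00572% on gd10.5, 0.0166% on gd14.5, 0.00586% on gd16.5 and 0.023% on gd19.5. The study used DESeq2 with the same limits and reported more genes at gd16.5, with perforin and granzyme genes among those lower. A call of 0 members by edgeR thus does not show that a difference was absent.

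At gd10.5 KO replicate 2 decided the comparison. *Psg27* was at 67.3, 61.6 and 61.6 CPM in WT and at 18.4, 1040 and 22.4 CPM in KO, so 1 KO library was far above WT and the other two were below it (log2 fold change 2.50 ± 1.48, edgeR adjusted p = 1.00). *Psg17* was at 8.26, 10.2 and 10.53 CPM in WT and at 3.47, 192 and 2.6995 CPM in KO. *Psg18* was at 37.9, 41.1 and 38.1 CPM in WT and at 13.1, 608 and 12.1 CPM in KO. In replicate 2 the 9 rising members were 6.61-fold (*Psg26*) to 62.2-fold (*Psg17*) above the mean of KO replicates 1 and 3, and *Psg22* was at 0.689 of it. At an unadjusted p under 0.05, 0 members passed, against 0.801% of all genes.

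Other genes moved in the same library, some chosen after their values were seen. The 6 spongiotrophoblast and glycogen cell markers summed to 11791 CPM in KO replicate 2, against 1000 and 789 CPM in the other two KO libraries and 1365 to 2052 CPM in WT. *Tpbpa* was 14.2-fold and *Tpbpb* 31.1-fold higher than the mean of KO replicates 1 and 3, and *Psg-ps1* was 51.3-fold higher, while *Psg29* was at 1.07 of that mean. *Prl3d1*, a hormone of parietal giant cells, was 15.2-fold lower, *Ncr1*, an NK cell receptor, 16.8-fold lower and *Bmp2*, a decidual growth factor, 9.49-fold lower. The 6 NK cell markers summed to 240 CPM, against 548 and 624 CPM in the other two. These named genes and the NK cell sum differed in the same directions between gd10.5 and gd14.5 in WT, apart from *Psg29*, which did not pass the test there. The erythroid markers went the other way, at 2916 CPM in KO replicate 2 against 967 and 1833 CPM in the other two KO libraries, while in WT they summed to 989 to 1438 CPM at gd10.5 and 577 to 885 CPM at gd14.5. Why the library stood apart was not tested.

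Without that library, the remaining KO libraries of gd10.5 were lower than WT in several members, a comparison of 2 libraries with 3 that was added after the data were seen. *Psg18* (-1.62 ± 0.11, adjusted p = 0.0261) and *Psg27* (-1.63 ± 0.12, adjusted p = 0.0322) were called lower by edgeR, 2 of the 6 genes called lower among 17835 (0.0336%). *Psg25* was at -1.72 ± 0.17 (adjusted p = 0.0566) and *Psg17* at -1.64 ± 0.19 (adjusted p = 0.121). *Psg22* was at -0.14 ± 0.18 and *Psg26* at 0.00 ± 0.28, both with adjusted p = 1.00. The spongiotrophoblast and glycogen cell marker sums of the 2 KO libraries, 1000 and 789 CPM, were also below those of all 3 WT libraries, and their yolk sac marker sums were 1263 and 2230 CPM, against 2537, 8.69 and 11.5 CPM in WT. The part of either in the result was not tested.

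**Figure D5:**
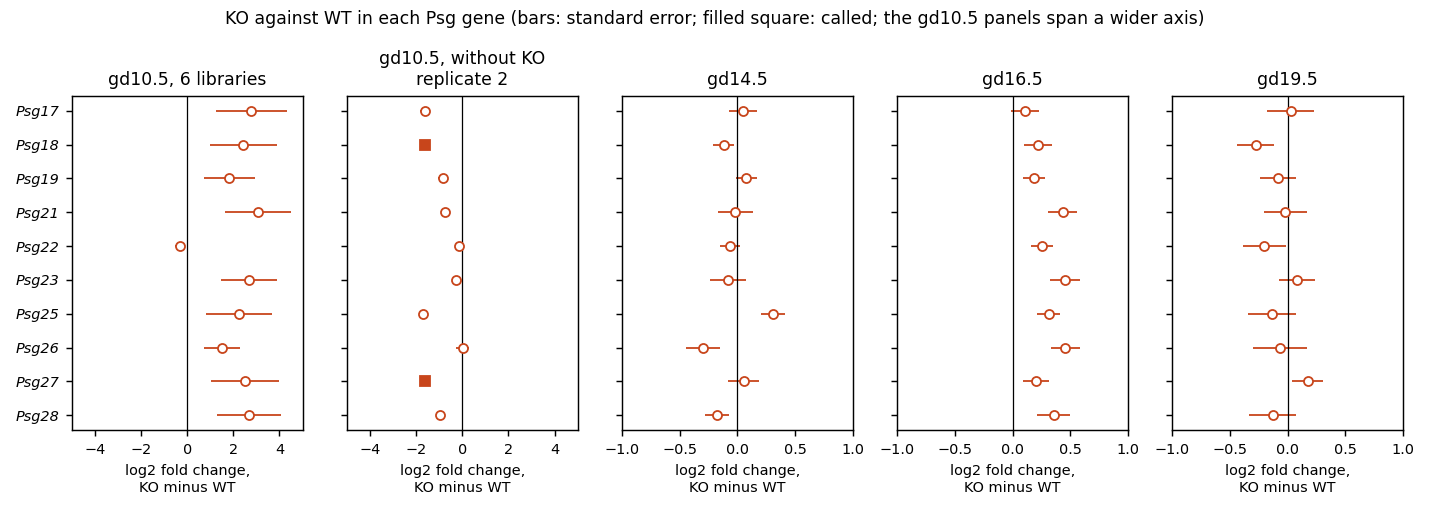
Log2 fold change of KO against WT (horizontal) for each of the 10 Psg genes (vertical) at the 4 gestation days and at gd10.5 without KO replicate 2, with bars for the standard error and filled squares for called genes. The gd10.5 panels span a wider axis. *Psg18* and *Psg27* are called in the panel without KO replicate 2 and no gene is called in the others.

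At gd14.5 the groups differed little. The fitted changes ran from -0.30 (*Psg26*) to 0.31 (*Psg25*) on the log2 scale. *Psg25* was at 1251, 1412 and 1425 CPM in WT and at 1659, 1500 and 1910 CPM in KO, which lay wholly above (adjusted p = 0.693, with 6.41% of all genes wholly above). It was the 1 member with an unadjusted p under 0.05, against 6.78% of all genes.

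At gd16.5 all 10 members were fitted higher in KO, by 0.11 (*Psg17*) to 0.46 (*Psg26*) on the log2 scale, against 51.6% of all genes, and 7 of the 10 lay wholly above WT, against 8.11% of all genes. None passed the adjusted test, the lowest adjusted p being 0.408, and 6 of the 10 had an unadjusted p under 0.05, against 5.49% of all genes in that direction. *Psg26* was at 3423, 3208 and 2722 CPM in WT and at 4541, 4288 and 3904 CPM in KO (0.46 ± 0.13, adjusted p = 0.408). *Psg23* was at 10886, 9407 and 8774 CPM in WT and at 13904, 13286 and 12362 CPM in KO (0.46 ± 0.13, adjusted p = 0.408). *Psg21* was at 15686, 15599 and 12947 CPM in WT and at 20948, 19416 and 18953 CPM in KO (0.44 ± 0.13, adjusted p = 0.414). In all 3 genes the groups did not overlap.

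The spongiotrophoblast and glycogen cell markers summed to 27605 to 38659 CPM in WT and 46296 to 50345 CPM in KO at this stage, 4 of the 6 being fitted higher and 0 called. The giant cell markers summed to 16699 to 23860 CPM in WT and 25083 to 29272 CPM in KO, with 5 of 6 fitted higher and 0 called. The labyrinth markers went the other way, at 680 to 817 CPM in WT and 431 to 679 CPM in KO, with 5 of 5 fitted lower and 0 called. The NK cell markers summed to 21.7 to 39.8 CPM in WT and 7.95 to 12.3 CPM in KO. Of the 6, only 2 passed the filter at this stage, with 2 fitted lower and 0 called. *Prf1* made up most of the WT sum, at a mean of 28.8 of 31.1 CPM. Yolk sac markers were high in 1 WT and 2 KO libraries. Other Psg genes were also wholly above WT, with *Psg16* at 0.50 ± 0.15, *Psg29* at 0.37 ± 0.10 and *Psg-ps1* at 0.55 ± 0.12 on the log2 scale (adjusted p = 0.421, 0.376 and 0.356). The part of cell make-up in these differences was not tested.

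At gd19.5 the fitted changes ran from -0.28 (*Psg18*) to 0.18 (*Psg27*), and 0 members had an unadjusted p under 0.05, against 13.5% of all genes. *Psg18* was at 1630, 1575 and 1595 CPM in WT and at 1544, 955 and 1534 CPM in KO, which lay wholly below (-0.28 ± 0.16, adjusted p = 0.482, with 8.58% of all genes wholly below). KO replicate 2 was the lowest of the 6 libraries for *Psg18*, as it was for *Psg21* at 10036 CPM against 12171 to 15418 CPM in the other 5.

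Whether the KO effect differed between stages was tested over all 24 libraries, and edgeR gave 0 members and 0 of 19299 genes with an adjusted p under 0.05. At an unadjusted p under 0.05, *Psg21* and *Psg23* passed, against 7.23% of all genes. Without KO gd10.5 replicate 2, *Psg17* (adjusted p = 0.0459), *Psg18* (0.00100), *Psg25* (0.00408) and *Psg27* (0.000309) passed, against 0.214% of all genes. These 4 had the largest differences at gd10.5 in that setting, from -1.62 to -1.72, and lay between -0.28 and 0.31 at the other stages with all libraries.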

How the data were processed

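The deposited table holds raw read counts per gene for the 24 libraries. Per the study's methods, the authors sequenced polyA RNA from a stranded mRNA kit as 150-base read pairs, trimmed reads with Trim Galore 0.6.4, aligned them to GRCm38 with STAR 2.7.3a and counted them with featureCounts of Subread 2.0.0. Counting with default settings ignores strand and leaves out reads that match several places, which can lower the counts of near-identical genes. KO libraries are numbered 3 to 5 in the sample titles and 1 to 3 in the count table, and the latter numbers are used here.

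Counts were scaled by TMM in edgeR 4.0.16 (R 4.3.3), genes were kept by filterByExpr (minimum count 10, minimum total count 15), and the quasi-likelihood test was fitted across all genes kept, with Benjamini-Hochberg adjustment over all of them. A gene is called at an adjusted p under 0.05 with an absolute log2 fold change over 1. KO was compared with WT on the 6 libraries of a stage, and stages were compared by contrasts of 1 fit over 24 libraries. All 10 members passed the filter. CPM uses the TMM library sizes, and RPKM divides it by the exon length in the table. The 24 pairs of replicates differed by more than sampling noise (chi-square per degree of freedom 8.68 to 188), so none was merged. Alternatives were DESeq2 1.42.0, other scalings, no filter, other sets of libraries, a replicate block and leaving out each library. The code was tested on simulated counts. All 10 members are named in every comparison. From the lists of other Psg genes, Ceacam genes, and binding partners and the TGF-beta axis, the genes with the largest called changes are named, and from marker lists of cell types mainly counts and sums are given. The members and lists were chosen with earlier results of these data known.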

Additional observations from a re-analysis of the deposited data

How the results depend on the processing

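The 9 members called higher and the 1 called lower from gd10.5 to gd14.5 in WT kept these calls when each of 7 libraries was left out, and under every other alternative but DESeq2, which gave 3 calls. DESeq2 also gave 2 calls for gd19.5 against gd10.5 in WT and 2 each for gd14.5 and gd19.5 against gd10.5 in KO, but it gave no adjusted p for 7 of the 10 members in these fits, so those calls were not made rather than lost. With only the 6 libraries compared, KO gave 2 calls for gd14.5 against gd10.5, 4 for gd16.5 against gd14.5, 2 for gd19.5 against gd16.5 and 4 for gd19.5 against gd10.5. For gd14.5 against gd10.5, the members that lost their call kept log2 fold changes of 3.05 (*Psg19*) to 4.61 (*Psg21*). Shares of all genes called are not given for the alternatives in this section, so these counts are not read as particular to the members. Scaling by library totals gave 1 call for gd19.5 against gd16.5 in WT (*Psg22*), and turned *Psg18* to -0.030 (WT) and *Psg22* to -0.016 (KO) for gd16.5 against gd14.5. That scaling moved the median of all genes by up to -0.23 on the log2 scale. In 1 fit of all 24 libraries *Psg21* was at 0.0083 for KO against WT at gd19.5. As a share of raw counts, the members that lead per kilobase took 59.4% (WT gd10.5), 30.9% and 18.2% (WT and KO gd14.5), 21.0% and 22.2% (gd16.5), and 25.1% and 26.8% (gd19.5). In raw counts *Psg21* led in every group from gd14.5 on, at 30.9% to 33.7% in the means.

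Leaving out 1 library at a time gave 0 to 2 calls for KO against WT at gd10.5 and 0 to 4 for the interaction, where KO gd10.5 replicate 2 made the difference. It gave 0 to 1 for gd16.5 against gd14.5 in WT, where the *Psg26* call was lost without WT gd14.5 replicate 1 at a fold change of 1.76 (1.76 to 1.98 over the libraries left out, log2 scale), and 0 to 1 for gd19.5 against gd16.5 in WT, where *Psg22* was gained without WT gd19.5 replicate 2. In KO these steps gave 1 to 4 and 0 to 2, in both cases through KO gd10.5 replicate 2. At gd10.5 the log2 fold changes of KO against WT ran from -1.64 to 3.35 (*Psg17*), -1.62 to 3.01 (*Psg18*), -0.85 to 2.37 (*Psg19*), -0.74 to 3.64 (*Psg21*), -0.29 to 3.22 (*Psg23*), -1.72 to 2.81 (*Psg25*), -1.63 to 3.07 (*Psg27*) and -0.99 to 3.26 (*Psg28*). At gd14.5 they ran from -0.083 to 0.13 (*Psg17*), -0.0029 to 0.14 (*Psg19*), -0.17 to 0.085 (*Psg21*), -0.13 to 0.030 (*Psg22*), -0.27 to 0.0095 (*Psg23*) and -0.079 to 0.12 (*Psg27*). At gd16.5 *Psg17* ran from -0.0060 to 0.17, and the other 9 members stayed above 0. At gd19.5 the ranges were -0.19 to 0.27 (*Psg17*), -0.23 to 0.11 (*Psg19*), -0.13 to 0.16 (*Psg21*), -0.31 to 0.12 (*Psg25*), -0.27 to 0.20 (*Psg26*) and -0.26 to 0.085 (*Psg28*). From gd16.5 to gd19.5 in WT, *Psg23* ran from -0.029 to 0.12 and *Psg26* from -0.056 to 0.10. The other 4 members at gd14.5 (*Psg18*, *Psg25*, *Psg26* and *Psg28*) and the other 4 at gd19.5 (*Psg18*, *Psg22*, *Psg23* and *Psg27*) kept their sign.

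A fit with the replicate number as a block changed no count of called members, for example 10 for gd14.5 against gd10.5 in WT, but turned *Psg18* (-0.17), *Psg25* (-0.25) and *Psg27* (-0.22) for KO against WT at gd10.5 and *Psg17* (-0.031) at gd19.5. Whether the numbers pair the libraries was not settled. Same-numbered WT and KO libraries deviated together with r over 0.1 in 5 of 12 pairs (-0.455 to 0.406). These values cannot decide it, since libraries with different numbers were not compared. In all, 1551 values under the alternatives counted as unchanged and 43 changed direction. Of the rest, 17 log2 fold changes became called, 13 lost their call, and 22 counts or shares moved. A log2 fold change was unchanged if it kept its direction and its call. A count of members was unchanged within a factor of 1.5, and a share within the SD of its group. Depth limits *Psg26* and *Psg17* most, at no more than 10.53 CPM in the gd10.5 libraries other than KO replicate 2.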
